A study of Mus musculus with 3 samples.

Results

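The small nucleolar RNA (snoRNA) genes described here are the rows of an RNA sequencing table whose mouse symbol begins with Snord (box C/D) or Snora (box H/ACA) and whose value was above 0 in 1 or more of 3 libraries. Of 50043 gene IDs in the table, 141 carried such a symbol, and 53 of them were above 0: 37 of 99 box C/D genes and 16 of 42 box H/ACA genes. Members were thus chosen by their FPKM values in the same libraries that are compared below, so those values are a description; the other 88 genes were listed at 0 in all 3 libraries. The samples were KH2 mouse embryonic stem cells in which Pold3, an accessory subunit of DNA polymerase delta, can be knocked out by induction, taken at passages P0, P1 and P2 with 1 library of total RNA each. All 3 samples carry the inducible knockout. The labels name no induction time and no uninduced control, so passage is the only labelled contrast. There is no replicate check of any difference, no p-value is given, and the intervals below cover counting error only. Values were deposited as FPKM, a level that allows for gene length and sequencing depth, and whole reads were recovered from them.

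SnoRNAs are short nuclear RNAs that pair with other RNAs and guide their chemical modification, mostly of ribosomal RNA in the nucleolus. Box C/D snoRNAs bind the methyltransferase fibrillarin (Fbl) and direct ribose methylation, whereas box H/ACA snoRNAs bind dyskerin (Dkc1) and direct the isomerisation of uridine to pseudouridine. In mammals most are not transcribed from promoters of their own: they lie in introns of host genes, often genes for ribosomal proteins or noncoding RNAs such as Gas5 and the Snhg (small nucleolar RNA host gene) transcripts, and are trimmed out of the spliced intron.

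The box C/D sequences below are shown for the highest gene and for 3 others that differ in how P2 stood to the earlier passages. Capitals mark the C box letters TGATGA near the 5′ end and the D box letters CTGA near the 3′ end, the 2 elements that give the class its name. All are the GENCODE M21 transcripts on the GRCm38 build, 5′ to 3′ on the gene's strand in DNA letters. Snord104 had the most reads, Snord49a had the lowest ratio of P2 to P1 and Snord83b the lowest ratio of P2 to P0 among box C/D genes with at least 20 reads in the libraries compared, and Snord17, at 238 bases the longest, was the one of 12 members with at least 20 reads at P2 and P1 together that was higher at P2.
Snord104: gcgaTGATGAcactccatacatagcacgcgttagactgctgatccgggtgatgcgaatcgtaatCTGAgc
Snord49a: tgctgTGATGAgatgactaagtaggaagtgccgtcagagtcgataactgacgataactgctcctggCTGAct
Snord83b: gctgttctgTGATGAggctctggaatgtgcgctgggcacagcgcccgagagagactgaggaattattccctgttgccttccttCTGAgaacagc
Snord17: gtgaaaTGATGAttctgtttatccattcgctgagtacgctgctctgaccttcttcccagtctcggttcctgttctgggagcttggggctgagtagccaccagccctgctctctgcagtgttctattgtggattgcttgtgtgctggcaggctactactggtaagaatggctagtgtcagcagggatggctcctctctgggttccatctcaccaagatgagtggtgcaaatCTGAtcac

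The box H/ACA sequences show the 3 genes with the most reads of that class and Snora57, which had the lowest ratio of P2 to P0 among members with at least 20 reads in those libraries. Capitals mark the ACA letters at the 3′ end. The H box was not marked.
Snora28: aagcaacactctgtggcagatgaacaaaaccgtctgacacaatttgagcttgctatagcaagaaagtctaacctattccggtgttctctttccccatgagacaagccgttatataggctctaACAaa
Snora17: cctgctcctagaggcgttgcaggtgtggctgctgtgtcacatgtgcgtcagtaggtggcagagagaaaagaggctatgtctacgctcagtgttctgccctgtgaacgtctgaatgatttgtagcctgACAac
Snora31: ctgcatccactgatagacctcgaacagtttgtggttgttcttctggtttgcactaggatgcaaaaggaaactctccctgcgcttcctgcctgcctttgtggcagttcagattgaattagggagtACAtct
Snora57: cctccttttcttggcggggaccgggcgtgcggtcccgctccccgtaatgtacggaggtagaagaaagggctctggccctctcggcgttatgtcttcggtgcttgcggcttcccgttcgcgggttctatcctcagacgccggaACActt

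These letters were counted over all members as a check of the names. TGATGA in the first 20 bases was found in 25 of the 37 box C/D genes (67.6%), in 0 of the 16 box H/ACA genes and in 6 of 3995 snRNA, microRNA and miscellaneous RNA genes under 300 bases in the annotation (0.150%). CTGA in the last 15 bases was found in 32 of 37 box C/D genes (86.5%), in 2 of 16 box H/ACA genes and in 186 of the 3995 others (4.66%). ACA in the last 10 bases was found in 16 of 16 box H/ACA genes, in 6 of 37 box C/D genes (16.2%) and in 571 others (14.3%). The search read the transcript strand only. Both classes therefore carried the letters of their names far more often than other short genes did. Snord43 is annotated in M21 as a microRNA gene of 108 bases, and its first TGATGA begins at position 41, outside the window searched.

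Depth was 23213528, 18059914 and 22405670 reads for the libraries of P0, P1 and P2, so that of P1 was the shallowest. Pold3 measured 49.2, 13.0 and 11.6 FPKM at P0, P1 and P2, so passage and the Pold3 level cannot be told apart in the comparisons with P0. The 8 embryonic stem cell markers summed to 3763, 3661 and 4011 FPKM, with Pou5f1 at 712, 746 and 670 FPKM. That sum hid differences in both directions. Dppa5a measured 1089, 1107 and 1322 FPKM, Tdgf1 889, 970 and 1079, and Nanog 179, 165 and 240. Esrrb measured 221, 127 and 118 FPKM, Sox2 274, 229 and 212, Zfp42 205, 145 and 170, and Klf2 193, 172 and 200. Of 8 fibroblast markers 6 were above 0 and summed to 6.69, 16.4 and 18.8 FPKM, with Postn and S100a4 at 0 in all 3 libraries. Col1a1 (1.98, 5.63 and 7.09 FPKM) and Thy1 (4.21, 9.83 and 11.0 FPKM) made up most of that sum. Their part in the snoRNA values was not tested.

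The snoRNA genes were thinly covered. Over the 3 libraries they held 1478 reads, of which Snord104 and Snord55 had 27.3% and the 5 highest genes 47.6%. There were 26 members with at least 10 reads over the 3 libraries and 27 with fewer. The 6 members that only just met the rule, Snord37, Snord59a, Snord66, Snord92, Snord123 and Snora43, had 1 read in 1 library. Because the genes are short, 64 to 238 bases in box C/D (median 80) and 127 to 184 in box H/ACA (median 132), 1 read was worth 0.181 to 0.673 FPKM at P0, 0.233 to 0.865 at P1 and 0.188 to 0.697 at P2. A gene at 0 may have up to 3 reads by counting error alone.

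Both classes were lowest at P2. At P0, P1 and P2 the box C/D genes summed to 397, 391 and 242 reads, which is 17.1, 21.7 and 10.8 reads per 1000000 reads of the library total. Box H/ACA genes summed to 212, 147 and 89 reads, or 9.13, 8.14 and 3.97 on that scale. The box C/D sum was thus highest at P1 and the box H/ACA sum at P0. The members above 0 numbered 48 at P0, 49 at P1 and 36 at P2, and 35 were above 0 in all 3 libraries. At P2, 13 of the box C/D and 4 of the box H/ACA genes were at 0. P2 was nearly as deep as P0 and deeper than P1. In these bulk libraries fewer cells with an RNA and less of it per cell cannot be told apart.

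**Figure D1:**
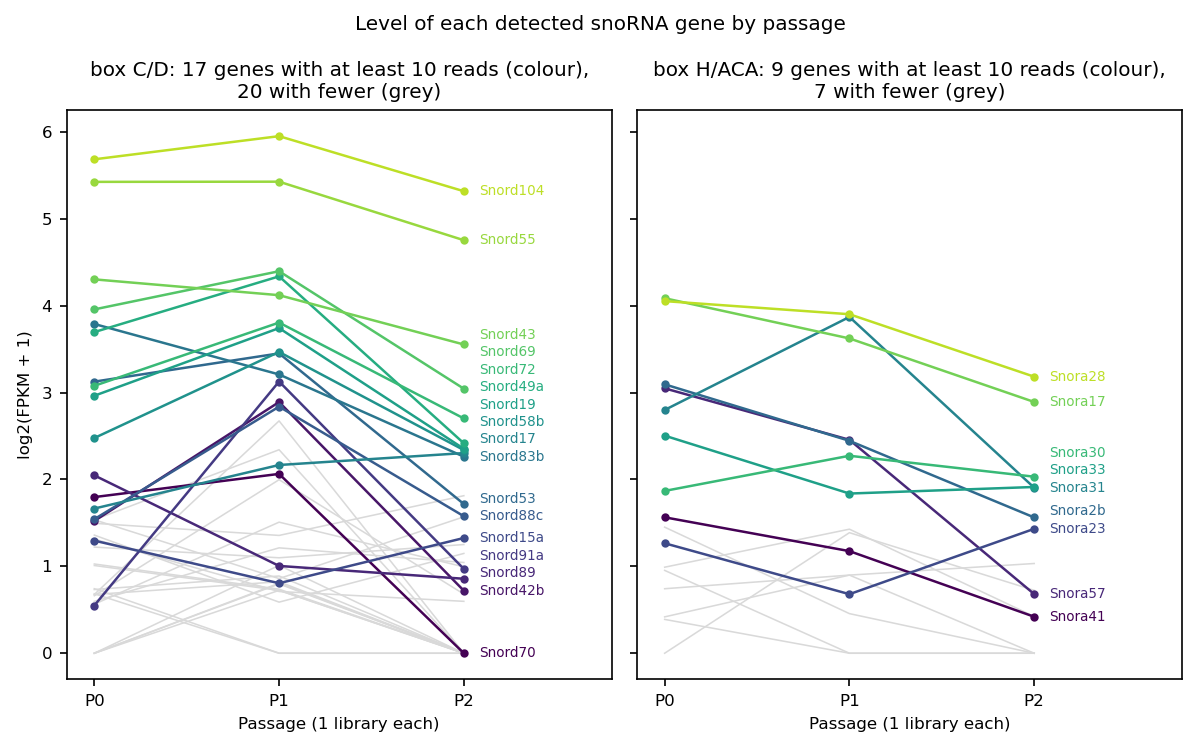
Level of each of the 53 snoRNA genes above 0 at P0, P1 and P2 as log2(FPKM + 1), with box C/D genes on the left and box H/ACA genes on the right; each point is 1 library. Coloured lines are the 17 box C/D and 9 box H/ACA genes with at least 10 reads, and most of them end below their P0 and P1 levels.

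Relative to the library totals, the box C/D sum at P2 was 0.499 of that at P1 (interval 0.423 to 0.587), and the box H/ACA sum was 0.488 of it (0.371 to 0.639). These 2 ratios lay within each other's intervals, and the ratio between them was 1.02 (0.743 to 1.41). Against P0, the box C/D sum at P2 was 0.632 (0.536 to 0.743) and the box H/ACA sum 0.435 (0.336 to 0.560). At P1 against P0 the box C/D sum was 1.27 (1.10 to 1.46) and the box H/ACA sum 0.891 (0.717 to 1.11). Both classes were therefore about equally low at P2 relative to P1. Their P1 sums stood on different sides of P0, though the box H/ACA interval for that comparison holds 1.

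The difference between the classes at P1 against P0 was a ratio of ratios of 1.42, box C/D over box H/ACA (1.10 to 1.84). It was 1.54 without Snord104 and Snord55 (1.16 to 2.05), and 1.31 without Snora28 and Snora17, with an interval of 0.950 to 1.81 that holds 1. At P2 against P0 it was 1.45 (1.07 to 1.97), and 1.35 without Snord104 and Snord55 (0.964 to 1.90). Both values share the P0 library. Each of the 2 intervals thus came to hold 1 when the 2 highest genes of 1 class were left out.

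Single genes were also described among those with at least 10 reads, since 8 members above 0 in 1 library only are highest there by the rule itself. Of 17 such box C/D genes 12 were highest at P1, 3 at P0 and 2 at P2, and of 9 box H/ACA genes 2 were highest at P1, 6 at P0 and 1 at P2. The lowest of the 3 values was at P2 in 13 of the 17 and in 6 of the 9.

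The highest member in each library was Snord104, at 50.5 FPKM at P0, 60.9 at P1 and 38.9 at P2, from 82, 77 and 61 reads. No gene of the annotation contains it. Its ratio was 0.639 at P2 against P1 (0.449 to 0.905) and 0.771 at P2 against P0 (0.544 to 1.09). Snord55, which in human guides ribose methylation of the large subunit rRNA, measured 42.0, 42.1 and 26.0 FPKM from 77, 60 and 46 reads. Its ratio was 0.618 at P2 against P1 (0.411 to 0.923). These top 2 genes had smaller differences than the class as a whole: without them the box C/D ratio at P2 against P1 was 0.428 (0.345 to 0.530).

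Of the 53 members 15 lie in ribosomal protein genes, 11 box C/D and 4 box H/ACA. Rpl3, a large subunit protein gene, holds both Snord43 and Snord83b. Snord43, a guide for the small subunit rRNA in human, measured 18.7, 16.4 and 10.7 FPKM from 47, 32 and 26 reads. Snord83b measured 12.8, 8.25 and 3.80 FPKM from 28, 14 and 8 reads, and its ratio at P2 against P0 was 0.296 (0.117 to 0.667). Both were highest at P0. Snord72, in Rpl37, measured 7.45, 13.0 and 5.51 FPKM from 14, 19 and 10 reads, a ratio of 0.424 at P2 against P1 (0.176 to 0.959).

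Gnl3, which encodes the nucleolar GTPase nucleostemin, holds Snord69 and Snord19. Snord69 measured 14.5, 20.1 and 7.25 FPKM from 27, 29 and 13 reads, and Snord19 measured 6.80, 12.4 and 4.11 FPKM from 12, 17 and 7 reads. Their ratios at P2 against P1 were 0.361 (0.172 to 0.717) for Snord69 and 0.332 (0.116 to 0.842) for Snord19. The pair from this gene thus had its highest value at P1 and its lowest at P2 in both members. Both touch an annotated Gnl3 exon in M21, so reads of the spliced transcript could be counted with them. Snord42b, Snord100, Snora28, Snora2b and Snora33, described below, also touch an exon of another gene on their strand, and the same limit holds for them.

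The noncoding gene 2410006H16Rik holds Snord49a, Snord49b and Snord65. Snord49a measured 12.0, 19.2 and 4.34 FPKM from 20, 25 and 7 reads, and its ratio at P2 against P1 was 0.226 (0.0824 to 0.537). Snord49b had 1, 7 and 0 reads. With 3 reads taken in place of the 0 it was 2.89-fold lower at P2 than at P1. With counting error in the 7 reads as well, the interval of its ratio was 0 to 0.559. Snord65 had 1, 1 and 0 reads. All 3 were lowest at P2.

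Some thinly covered box C/D genes had their highest value at P1. Snord91a, in the ribosome biogenesis gene Tsr1, measured 0.463, 7.74 and 0.960 FPKM from 1, 13 and 2 reads; its ratio was 16.7 at P1 against P0 (2.51 to 710) and 0.124 at P2 against P1 (0.0136 to 0.548). Of the next 5 genes each had an interval at P1 against P0 that holds 1. Snord88c measured 1.91, 6.15 and 1.98 FPKM from 4, 10 and 4 reads, with a ratio of 3.21 at P1 against P0 (0.927 to 14.0). Snord42b, in Rpl23a, measured 1.87, 6.42 and 0.647 FPKM from 3, 8 and 1 reads, with a ratio of 3.43 (0.823 to 20.1). Snord100, in Rps12, measured 0.582, 2.99 and 0.603 FPKM from 1, 4 and 1 reads, with a ratio of 5.14 (0.509 to 253). These 3 genes were therefore not distinguishable between P1 and P0 at this depth. Snord58b, in Rpl17, measured 4.57, 10.1 and 4.06 FPKM from 7, 12 and 6 reads, with a ratio of 2.20 (0.800 to 6.61). Snord53, in Wdr43, measured 7.73, 9.94 and 2.29 FPKM from 14, 14 and 4 reads, with a ratio of 1.29 at P1 against P0 (0.568 to 2.91) and 0.230 at P2 against P1 (0.0552 to 0.733).

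Snord17, in the sorting nexin gene Snx5, went the other way. It measured 2.17 FPKM at P0, 3.49 at P1 and 3.94 at P2, from 12, 15 and 21 reads. Its ratio was 1.81 at P2 against P0 (0.852 to 4.04) and 1.13 at P2 against P1 (0.555 to 2.35), so both intervals hold 1. Snord89 was the one member lower at P1 than at P0 by the 2-fold rule, at 3.13, 1.01 and 0.811 FPKM from 8, 2 and 2 reads.

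Snora28, Snora17 and Snora31 had the most reads of the box H/ACA class. Snora28, a guide for the small subunit rRNA in human that lies in the translation initiation factor gene Eif5, measured 15.6, 14.0 and 8.08 FPKM from 46, 32 and 23 reads. Snora17 measured 16.0, 11.3 and 6.42 FPKM from 49, 27 and 19 reads. At P2 against P0 the ratios were 0.518 for Snora28 (0.300 to 0.872) and 0.402 for Snora17 (0.223 to 0.695). Both were highest at P0 and lowest at P2.

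Snora31, in the translationally controlled tumour protein gene Tpt1, had another order, at 5.96, 13.6 and 2.75 FPKM from 18, 32 and 8 reads. Its ratio was 2.29 at P1 against P0 (1.24 to 4.32) and 0.202 at P2 against P1 (0.0802 to 0.447). It was the one member with at least 20 reads in P1 and P0 together whose interval lay above 1. Its highest value was at P1 and its lowest at P2, the order of the box C/D sum.

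Among the other box H/ACA genes, Snora57 measured 7.28, 4.49 and 0.603 FPKM from 25, 12 and 2 reads. Its ratio of 0.0829 at P2 against P0 (0.00951 to 0.332) was the lowest of the 14 members with at least 20 reads in those 2 libraries. Snora2b, in Kansl2, measured 7.55, 4.45 and 1.95 FPKM from 24, 11 and 6 reads. Like Snora57 it was highest at P0 and lowest at P2. Snora33, in Rps12, measured 4.68, 2.58 and 2.77 FPKM, Snora30, in Srcap, 2.65, 3.83 and 3.09 FPKM, and Snora23, in Ipo7, 1.40, 0.602 and 1.70 FPKM. These last 3 were not lowest at P2. Snora62, in the ribosomal protein gene Rpsa, had 6, 1 and 0 reads. With 3 reads taken in place of the 0 it was 1.93-fold lower at P2 than at P0, and the interval of its ratio was 0 to 0.880.

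A gene was counted as past 2-fold when log2(FPKM + 1) differed by at least 1 and FPKM was at least 1 in 1 or both libraries. At P2 against P1, 39 members could be compared; 0 were higher and 17 lower, 14 of 27 box C/D and 3 of 12 box H/ACA genes. Over all 13585 genes compared in the same way 0.78% were higher and 0.883% lower. The median log2 difference was -1.01 for box C/D, -0.73 for box H/ACA and 0.02 for all genes. The share of lower members was above that of all genes. That comparison is limited, since a gene could pass the floor through the library where it was higher alone. Snord23 did so at P1 on 2 reads and Snord100 on 4. The counts of members past 2-fold depend on how low values are treated: with a floor of FPKM 5, 11 members were lower, and with a pseudocount of 0.1, 3 were higher. Among all genes most have many more reads than a snoRNA gene, so the shares were also taken over genes with at least 10 reads in the pair, with 2-fold in FPKM itself. By that rule 0 of 20 members were higher and 12 lower, where the shares of all genes were 5.76% and 3.18%.

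At P2 against P0, 0 of 36 members were higher and 13 lower, 8 of 25 box C/D and 5 of 11 box H/ACA genes; with a floor of FPKM 5, 6 were lower. Over all 13472 genes 6.72% were higher and 1.16% lower. Here too a member could pass the floor through the higher library alone, as Snord32a and Snord71 did at P0 on 2 reads each. The median differences on the log2 scale were -0.67, -0.89 and 0.07 for box C/D, box H/ACA and all genes. By the 10-read rule 0 of 21 members were higher and 9 lower, against 17.5% and 3.19% of all genes. Where all genes past 2-fold were mostly higher at P2, the snoRNA genes past 2-fold were all lower under both rules.

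At P1 against P0, 8 of 42 members were higher and 1 was lower, against 4.12% and 0.549% of 13288 genes. With a floor of FPKM 5, 5 were higher and 0 lower, and with a pseudocount of 0.1, 6 were lower. The higher ones were Snord23, Snord42b, Snord49b, Snord88c, Snord91a, Snord100, Snora21 and Snora31. Of these, Snord23, Snord49b, Snord91a, Snord100 and Snora21 passed the floor through P1 alone, the library where they were higher. Snord23 had 0 reads at P0 and 2 at P1, and Snora21 had 0 and 4. By the 10-read rule 5 of 23 were higher and 1 lower, against 12.7% and 2.18%. The medians were 0.38 for box C/D, -0.43 for box H/ACA and 0.06 for all genes. Among members with at least 20 reads in the pair, 8 of 10 box C/D ratios were above 1 and 5 of 6 box H/ACA ratios below 1, and 15 of the 16 intervals held 1.

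Gas5 and the Snhg genes are the spliced noncoding hosts of snoRNAs. Of 14 such genes 13 were above 0, and 11 could be compared under the 2-fold rule. Gas5 measured 86.5, 77.9 and 48.3 FPKM at P0, P1 and P2, Snhg1 69.6, 70.1 and 46.8, and Snhg5 81.1, 78.2 and 54.5. Snhg6 measured 60.9, 51.9 and 38.6 FPKM, Snhg8 49.8, 48.1 and 33.8, Snhg12 31.4, 31.8 and 18.9, and Snhg15 34.1, 34.7 and 25.5. All 7 of these were lowest at P2, with P1 at 0.853 to 1.02 of P0. Snhg11 (4.66, 7.66 and 2.51 FPKM), Snhg14 (14.2, 18.6 and 8.81) and Snhg17 (19.95, 29.0 and 13.9) were highest at P1, and these 3 were the hosts past 2-fold at P2 against P1. Snhg20 measured 8.79, 9.07 and 6.14 FPKM.

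Together Gas5 and the Snhg genes held 8620, 6982 and 5354 reads. Their ratio was 0.618 at P2 against P1 (0.596 to 0.641), 0.644 at P2 against P0 (0.622 to 0.666) and 1.04 at P1 against P0 (1.01 to 1.07). For all 53 snoRNA genes the ratios were 0.496 (0.431 to 0.570), 0.563 (0.491 to 0.645) and 1.14 (1.01 to 1.28). The snoRNA genes and these hosts were thus both low at P2. The snoRNA ratio over the host ratio was 0.802 at P2 against P1 (0.694 to 0.926), 0.875 at P2 against P0 (0.760 to 1.01) and 1.09 at P1 against P0 (0.965 to 1.23).

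**Figure D2:**
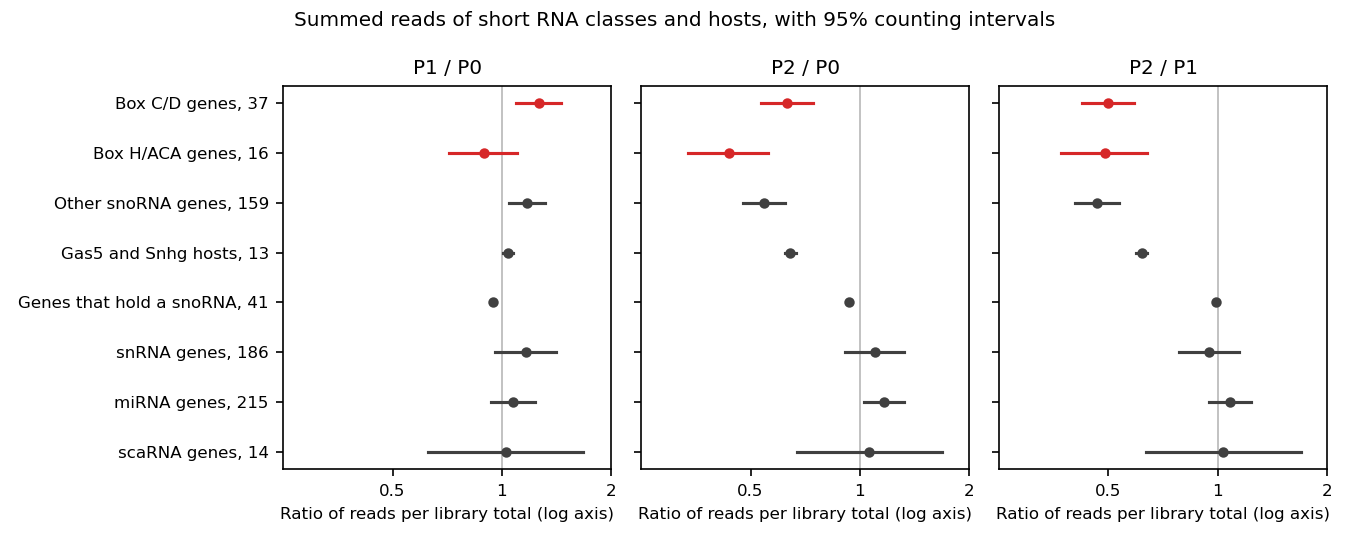
Ratio of summed reads per library total for box C/D and box H/ACA snoRNA genes (red) and for other short RNA classes and host genes (grey), on a log axis, with 95% counting intervals as bars. At P2 the snoRNA classes and the Gas5 and Snhg genes lie below 1 against both earlier passages, and the genes that hold a snoRNA lie near 1.

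Most members above 0, however, do not lie in Gas5 or an Snhg gene. There were 40 in protein-coding genes, 9 in noncoding genes and 4 in no annotated gene on the same strand, and only Snord87 (Snhg6), Snord123 (Snhg18) and Snora78 (Snhg9) lie in an Snhg gene. Their reads were 3, 1 and 1 for Snord87, 1, 0 and 0 for Snord123, and 2, 2 and 3 for Snora78. The 41 genes that hold a member had a summed ratio of 0.988 at P2 against P1 (0.984 to 0.992) and 0.936 at P2 against P0 (0.933 to 0.940). The 49 members inside these genes had a ratio of 0.476 at P2 against P1 (0.405 to 0.558), and their ratio over that of the genes was 0.481 (0.410 to 0.564). Members in protein-coding genes had a ratio of 0.486 at P2 against P1 (0.410 to 0.574), those in noncoding genes 0.384 (0.213 to 0.668) and the 4 in no gene 0.570 (0.424 to 0.763). Of the 463206 reads of the 41 genes at P1, 461560 were from 34 protein-coding genes. The summed ratio of the 41 genes therefore says little about the noncoding hosts.

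Set against its own host, a snoRNA was usually the lower at P2. Of 10 members with a host and at least 20 reads at P2 and P1 together, 9 had a ratio below that of the host, and in 6 the interval lay wholly below it. The median ratio was 0.442 for the snoRNAs and 0.964 for their hosts. Tpt1 measured 1637, 1671 and 1712 FPKM at P0, P1 and P2, a ratio of 1.02 at P2 against P1 where Snora31 had 0.202. Gnl3 had 0.890 where Snord69 had 0.361, and 2410006H16Rik had 0.695 where Snord49a had 0.226. Snord17 was the exception, at 1.13 against 1.05 for Snx5. Members in the same host are not independent of each other.

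**Figure D3:**
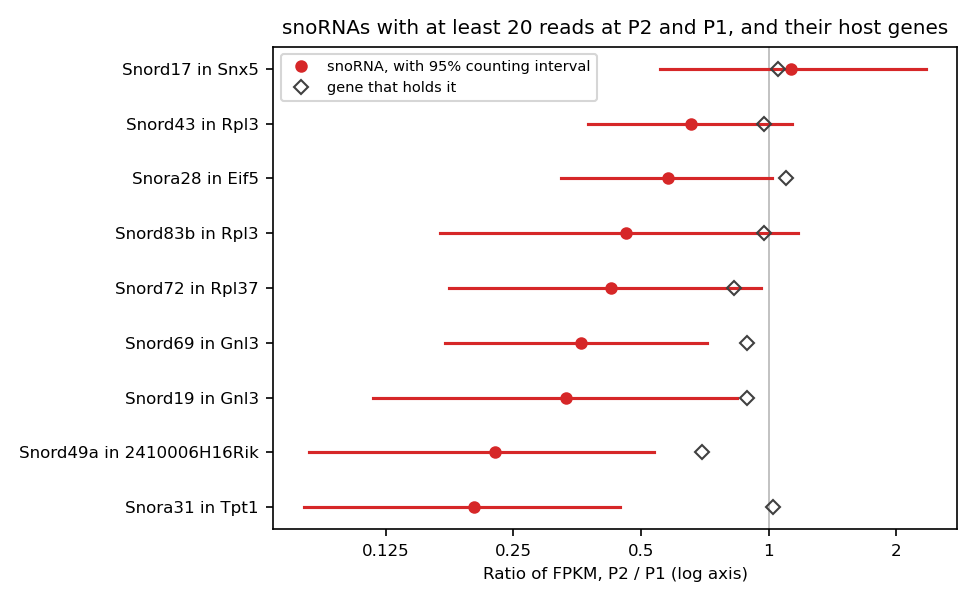
Ratio of FPKM at P2 to P1, on a log axis, for 9 of the 10 snoRNA genes with a host and at least 20 reads in those libraries (red, with 95% counting intervals) and for the gene that holds each (open diamonds). The snoRNA lies left of its host in all but Snord17.

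At P1 against P0 the picture differed. Of 13 such members 5 had a ratio below the host's and 0 had an interval wholly below it, with medians of 1.29 for snoRNAs and 0.932 for hosts. At P2 against P0, 9 of 11 were below the host and 3 intervals lay wholly below it, with medians of 0.518 and 0.901.

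The snoRNA genes above 0 and those at 0 were set against the annotation. Of the 53 above 0, 9 (17.0%) touch an exon of another gene on the same strand in M21, against 60 of the 88 at 0 (68.2%). Turned round, 9 of the 69 genes that touch such an exon were above 0 (13.0%), and 44 of the 72 that do not (61.1%). Leaving out the 17 Snord116 copies in Snhg14, all at 0 and clear of exons, it was 44 of 55 (80.0%). Detection in the table was thus tied to the annotation around the gene, in both classes: 32 of 58 box C/D and 12 of 14 box H/ACA genes clear of exons were above 0, against 5 of 41 and 4 of 28 that touch one. How the authors assigned reads that 2 genes share is not known here, and its part in this was not tested. A value of 0 is therefore no measure of absence.

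**Figure D4:**
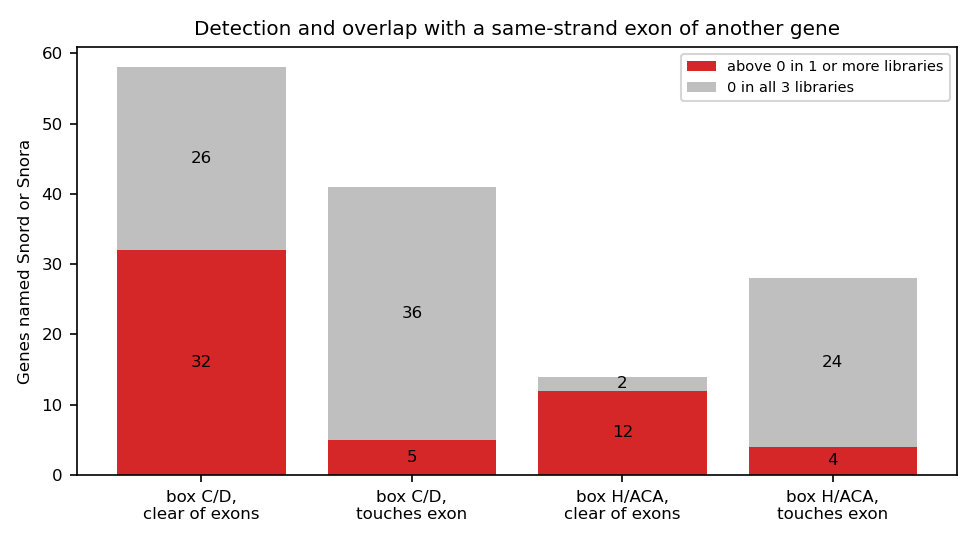
Number of box C/D and box H/ACA genes above 0 in 1 or more libraries (red) and at 0 in all 3 (grey), split by whether the gene touches an exon of another gene on its strand. Of the genes that touch one, 5 of 41 box C/D and 4 of 28 box H/ACA genes were above 0.

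The genes at 0 include the snoRNAs of the spliced hosts. Apart from the Snord116 copies, 19 snoRNA genes lie in Gas5 or an Snhg gene; 15 of them touch an exon, and 0 of those 15 were above 0. Among them are Snord47, Snord78 and Snord80 in Gas5, Snord22 in Snhg1, Snord50a and Snord50b in Snhg5, Snora24 in Snhg8, and Snora16a, Snora44, Snora61 and Snord99 in Snhg12. So the low P2 values of these hosts could not be followed in the snoRNAs they carry. Also at 0 were Snora73a, Snora73b and Snora74a, and Snord118 (U8) and Snord13 (U13), which act in rRNA processing and lie in no annotated gene. The second ID named Snora43 was at 0, and it overlaps the one with 1 read.

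Members that touch an exon had a ratio at P2 against P1 of 0.440 (9 genes, 0.315 to 0.610), and those clear of exons 0.510 (44 genes, 0.436 to 0.595). The lower level at P2 was thus present in both. The strand of the libraries is not given, so reads of a host intron or of an overlapping transcript cannot be told apart from reads of the snoRNA.

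Genes for proteins that bind, assemble or trim snoRNAs were compared by the same 2-fold rule. The box C/D core list had 5 genes above 0, and 0 were past 2-fold in any comparison. Since few genes of the whole table were past 2-fold at P2 against P1 (0.78% higher and 0.883% lower), a count of 0 in lists this small does not set them apart from other genes. Fbl measured 504, 504 and 505 FPKM at P0, P1 and P2, the core protein Nop56 435, 389 and 358, and Nop58 324, 300.2 and 285. Of the 4 box H/ACA core genes 0 were past 2-fold; Dkc1 measured 314, 272 and 270.3 FPKM. The other members of the lists were Snu13, which binds the box C/D motif (270.4, 252 and 260.5 FPKM), Rrp9 (47.0, 47.7 and 45.1), Nhp2 (434, 433 and 451), Nop10 (181, 193 and 192) and Gar1 (218, 205 and 192). The median log2 differences at P2 against P1 were -0.07 and -0.01 for the box C/D and box H/ACA cores, beside 0.02 for all genes. Of 13 assembly factors 0 were past 2-fold, and their log2 differences at P2 against P1 ran between -0.22 and 0.20. Taf1d had been listed with them but encodes a subunit of an RNA polymerase I factor and is known as a snoRNA host gene; it measured 75.5, 64.5 and 39.7 FPKM. The AAA+ ATPase genes Ruvbl1 and Ruvbl2, which act in assembling both classes, measured 120, 111 and 110.1 FPKM and 471, 504 and 531 FPKM. Naf1 and Shq1, assembly factors of box H/ACA particles, measured 83.4, 88.0 and 92.2 FPKM and 15.2, 16.0 and 16.3 FPKM, so these 4 genes stayed within 2-fold. Of 7 genes for trimming and intron debranching 0 were past 2-fold, with the debranching enzyme gene Dbr1 at 60.1, 65.3 and 78.3 FPKM.

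Other short RNA genes served as a comparison for coverage of short genes. The 159 further genes annotated as snoRNA but named otherwise had a ratio of 0.465 at P2 against P1 (0.405 to 0.533), and the named snoRNA genes over these gave 1.07 (0.875 to 1.30). The 186 snRNA genes, which encode spliceosomal and related RNAs, had 0.946 (0.781 to 1.15), the 215 microRNA genes 1.08 (0.949 to 1.24) and the 14 scaRNA genes, whose RNAs guide modification of snRNAs in Cajal bodies, 1.03 (0.635 to 1.69). The named snoRNA ratio over the snRNA ratio was 0.525 at P2 against P1 (0.413 to 0.666). The low P2 level was thus seen in snoRNA genes under either kind of name, while the intervals of these other 3 classes hold 1. That contrast is limited by thin coverage. The top microRNA gene of each library had 120 of 290 summed FPKM at P1 and 175 of 334 at P2. The microRNA median fell from 0.436 FPKM at P1 to 0 at P2. Among snRNA genes, 0 reached 10 reads at P1 and 3 did at P2. The 4 ribozyme genes had 0.780 at P2 against P1 (0.576 to 1.06) and 0.555 at P2 against P0 (0.424 to 0.723). Nearly all of their reads were from 1 gene, Rpph1, with 165 of 166 at P0 and 87 of 89 at P2. At P2 against P0 the snRNA class had 1.10 (0.913 to 1.33), the microRNA class 1.17 (1.03 to 1.32) and the scaRNA class 1.06 (0.670 to 1.68). The microRNA interval thus lay above 1 in that comparison. The 1 mitochondrial tRNA gene above 0 had 0.574 at P2 against P1 (0.486 to 0.678). Among single short RNAs, the RNase P RNA Rpph1 measured 22.3, 16.0 and 12.2 FPKM, the 7SK RNA Rn7sk 6.90, 8.53 and 7.28 FPKM, and the telomerase RNA Terc, which has a box H/ACA domain, 0.713, 2.23 and 3.69 FPKM.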

How the data were processed

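Total RNA of the 3 samples was sequenced, and the authors deposited 1 table of FPKM values for 50043 gene IDs. Per the submitters' processing notes, the build was mm9 and the tools included TopHat2 2.0.9 with Bowtie2 2.0.6. The counting program, annotation and strand are not given in the sources used. The IDs fit a later annotation than that build, so no coordinates are printed, and 49326 IDs matched a symbol. Hosts, exon overlaps and sequences came from GENCODE M21; 1 host gene and the sequence of its snoRNA are not reported here.

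FPKM is reads over gene length and library total. Totals that make values whole were recovered from genes with 1 read, and 26290 of 26291 IDs above 0 then gave whole reads within a relative tolerance of 1e-09, summing to 100.5% of the totals in each library. Ratios are of reads per library total, with exact conditional 95% (Clopper-Pearson) intervals; ratios of ratios have exact conditional intervals from the same reads, except against the genes that hold members, whose own counting error was left out as small. They cover counting error only, since reads are not independent molecules. With 1 library per passage there was no test. Genes were compared as log2(FPKM + 1), where low genes change by less than in FPKM itself, with a floor of FPKM 1. The steps were tested on simulated data.

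Members and gene lists were chosen with earlier results of these data known. Named were the 8 genes with the most reads in each class, the 4 with the largest ratio in each direction per comparison among those with at least 20 reads, the hosts, and the core and assembly proteins; other genes were named after their values were seen. Alternatives were a pseudocount of 0.1, floors of FPKM 5 or none, a 10-read rule, median-of-ratios scaling, summed FPKM, members with at least 10 reads, leaving out the highest member or the imprinted arrays and, chosen after seeing the data, leaving out the 2 highest genes of each class. Leaving out the imprinted arrays removed 0 members, so it could not change the counts. Nor could dropping the floor, because a difference of 1 on log2(FPKM + 1) already needs FPKM of at least 1. Tools were pandas 2.3.3, scipy 1.17.1, numpy 2.4.6 and matplotlib 3.10.9 under Python 3.11.15.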

Additional observations from a re-analysis of the deposited data

How the results depend on the processing

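No paired analysis was possible because each passage has 1 library. Counts of snoRNA genes past 2-fold moved most with the rules for low values. With a floor of FPKM 5, 5 genes were higher and 0 lower at P1 against P0 (8 and 1 as reported), 6 were lower at P2 against P0 (13 as reported) and 11 at P2 against P1 (17 as reported). With a pseudocount of 0.1, 6 were lower at P1 against P0 and 3 were higher at P2 against P1, where 0 were reported. The 10-read rule gave 5 higher at P1 against P0, and median-of-ratios scaling gave 2 lower. Summed FPKM turned the Gas5 and Snhg ratio at P1 against P0 to 0.990 (1.04 as reported) and gave 0.652 at P2 against P1 (0.618 as reported). The ratio of box C/D to box H/ACA ratios at P1 against P0 was 1.31 without Snora28 and Snora17, and at P2 against P0 it was 1.35 without Snord104 and Snord55 and 1.41 without all 4, each with an interval that holds 1. The causes were not tested. Under the alternatives run, the box C/D and box H/ACA sums at P2 kept their direction against P0 and P1. The reads set the limit: 27 of 53 members had fewer than 10 over the 3 libraries, so single-gene differences were often not detectable at this depth.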
